A study of Mus musculus with 4 samples.

Results

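The enteroendocrine genes described here are 10 named mouse genes, of 20520 protein-coding genes on autosomes with a measured promoter. They were listed by name for their roles in the enteroendocrine lineage and its hormones. They are the transcription factors Neurog3 and Neurod1, the granule proteins Chga and Chgb, the peptide hormone genes Gcg, Pyy, Cck, Insl5 and Tac1, and the serotonin enzyme gene Tph1. From 5 kb upstream of the transcription start site (TSS) to the gene end they held 392 of the 4076373 bins of 200 bp that were measured in every library.

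Whole-genome bisulfite sequencing (WGBS) measured DNA methylation in sorted colonic epithelium at birth, on postnatal day 0 (P0), and at postnatal day 21 (P21), near the end of suckling. The 4 groups, ISCs and differentiated cells of each age, had 1 library each. ISCs (intestinal stem cells) were sorted as Lgr5-EGFP+, and differentiated cells, which the paper describes as their progeny, as EpCAM+ and Lgr5-EGFP-. The paper also reports mosaic expression from this reporter allele, with crypts lacking EGFP in adult small intestine and colon. The EGFP- gate may therefore hold stem cells without the label, and their share was not measured. All groups came from the colon of C57 mice, from crosses of Lgr5-EGFP-CreER knock-in mice with wild-type C57 mice, in which the Lgr5 locus drives EGFP and a Cre that had no floxed allele to act on. Every library was a pool of mice, from whole litters at P0 and from reporter-positive offspring at P21, and whether pups without the reporter contributed P0 differentiated cells is not given in the sources used here. With 1 library per group there were no replicates, so every test below compares 2 libraries and not the conditions.

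Enteroendocrine cells are rare secretory cells scattered through the gut epithelium, which sense the lumen and release hormones or serotonin. Neurog3 commits progenitors to the lineage for a short time, Neurod1 acts after it, and mature cells then store their products in dense-core granules. CpG-rich promoters are commonly free of methylation in tissues that do not use the gene as well as in those that do, whereas promoters with few CpGs are commonly methylated.

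The level of a region is the percentage of its CpG calls that were methylated. It is a share over all sorted cells, so a change within cells and a change in the mix of cells cannot be told apart. Enteroendocrine cells are a small part of the EpCAM+ gate, and their own methylation was not measured separately. Total calls ranged from 1023427645 to 1188114423 per library, and the median member bin had 64 calls in P0 ISCs, 104.5 in P0 differentiated cells, 68.5 in P21 ISCs and 81 in P21 differentiated cells. Intervals are 95% Wilson intervals, or Newcombe intervals for a difference, and hold only counting error. They take each call as independent, but neighbouring CpGs can lie on 1 read, and PCR copies of a read are not independent molecules. The true uncertainty is therefore wider. Among cell type markers, the promoters of 4 of 4 stem cell markers and 8 of 8 epithelial markers were at 20% or less in all 4 libraries, against 0 of 6 leukocyte markers, whose median was 77.7% to 81.0%. Of the markers of mature epithelial cells, 0 of 3 colonocyte and 0 of 4 goblet cell promoters were that low. In the stromal list 4 of 5 promoters were at 20% or less, in the endothelial list 1 of 3 and in the neuronal and glial list 2 of 3, so a low promoter level does not by itself tell cell types apart. A CpG island (at least 25 CpGs in 500 bp) was present in 4 of 4 stem cell, 7 of 8 epithelial, 0 of 6 leukocyte and 1 of 5 stromal promoters. For stem cell, epithelial and leukocyte markers the levels thus went with CpG content, and they do not check the sort. With age, 3 marker promoters passed the test and moved by over 15 points: in ISCs 1 of 5 stromal markers, Pdgfrb, went from 48.1% to 70.0% and 1 of 3 colonocyte markers, Slc26a3, from 28.2% to 11.9%, and in differentiated cells 1 of 4 goblet cell markers, Fcgbp, from 51.1% to 33.8% (1.92% and 1.76% of all promoters were called in ISCs and in differentiated cells). The fall of Fcgbp was under that size by mean bin levels (-14.7 points) and with calls thinned to equal numbers per bin (-8.05 points). The part of these 3 markers in the members' changes with age was not tested.

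The sequences of 4 stretches show the range of CpG content among these genes. They are 200-bp bins of mm9 on the strand of the gene, in lower case with each CpG in capitals. The first holds the most CpGs of the Neurog3 promoter region and lies in coding exon 2 (chr10:61596401-61596600, plus strand), the second lies upstream of another Tph1 start within annotated intron 1 (chr7:53922801-53923000, minus strand), the third is the most CpG-rich promoter bin of Gcg (chr2:62321801-62322000, minus strand), and the fourth lies upstream of Chgb outside its exons and introns (chr2:132603401-132603600, plus strand).
Neurog3: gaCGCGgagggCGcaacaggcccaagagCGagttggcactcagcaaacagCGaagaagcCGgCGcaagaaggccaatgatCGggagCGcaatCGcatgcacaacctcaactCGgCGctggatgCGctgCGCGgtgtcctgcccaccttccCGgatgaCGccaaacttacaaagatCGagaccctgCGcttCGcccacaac
Tph1 other start: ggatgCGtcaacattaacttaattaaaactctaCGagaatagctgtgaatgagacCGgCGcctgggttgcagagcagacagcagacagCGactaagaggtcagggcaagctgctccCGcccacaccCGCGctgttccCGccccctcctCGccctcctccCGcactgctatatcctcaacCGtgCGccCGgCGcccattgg
Gcg: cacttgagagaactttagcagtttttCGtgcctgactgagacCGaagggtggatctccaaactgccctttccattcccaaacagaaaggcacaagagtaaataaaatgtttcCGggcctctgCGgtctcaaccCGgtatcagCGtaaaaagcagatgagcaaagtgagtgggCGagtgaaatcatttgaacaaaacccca
Chgb upstream: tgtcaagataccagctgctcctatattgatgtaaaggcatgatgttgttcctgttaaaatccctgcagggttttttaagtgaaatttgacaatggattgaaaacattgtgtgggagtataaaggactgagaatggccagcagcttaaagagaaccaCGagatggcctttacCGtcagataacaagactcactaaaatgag
The Neurog3 bin has 20 CpGs, the bin at the other Tph1 start 15, the Gcg bin 7 and the Chgb bin 2. Their levels are given with each gene.

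Of the 10 promoters, taken as the bins within 1 kb of the TSS, 7 were at 20% or less in all 4 libraries, namely those of Neurog3, Neurod1, Chga, Chgb, Pyy, Cck and Tac1. Those of Gcg, Insl5 and Tph1 were above 40% in every library. Over all genes, 56.3% of promoters were at 20% or less in all 4 libraries, so the members' share is near that of promoters in general. These are levels of pooled calls: by the mean of bin levels Chga (24.3% to 26.7%) and Pyy (24.99% to 28.2%) were above 20% in every library, which left 5 of 10 members, beside 45.02% of all promoters, in a count added after seeing the data. The split followed CpG content. By density (at least 25 CpGs in a window of 500 bp), 6 of the 10 promoters had a CpG island (CGI), and all 6 were low by pooled calls, as were 87.4% of CGI promoters over all genes; by mean bin levels 4 of the 6 were, and 70.5% over all genes. Cck was low without a CGI, which 7.92% of promoters without a CGI were. Across the 10 members the Spearman correlation of CpG number with the mean promoter level was -0.89, and across all promoters it was -0.80; these points share the libraries and are given as a description.

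**Figure D1:**
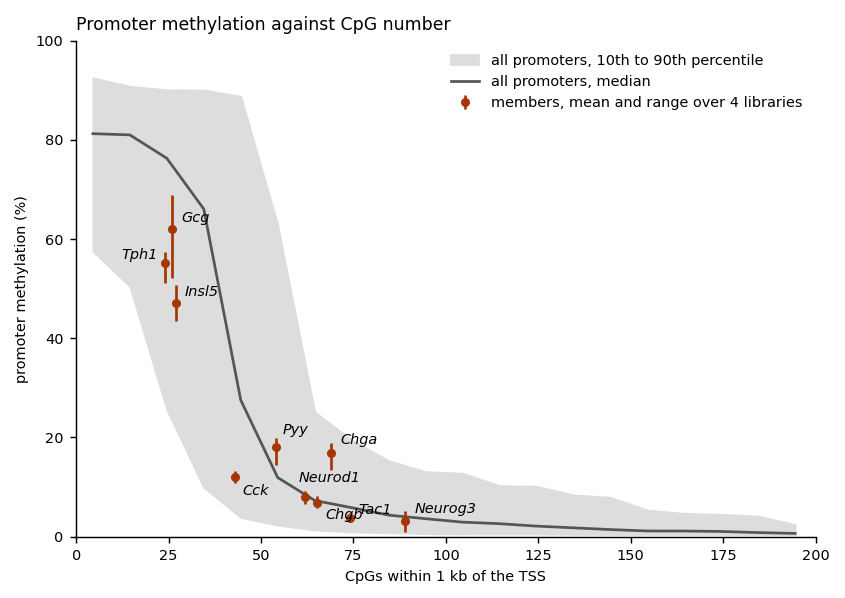
Mean promoter methylation over the 4 libraries (vertical axis, %) against the number of CpGs within 1 kb of the TSS (horizontal axis), with bars for the range over libraries; the grey band and line give the 10th to 90th percentile and the median of all promoters in classes of 10 CpGs. Gcg, Tph1 and Insl5, with 24 to 27 CpGs, lie high, and the 7 genes with 43 to 89 CpGs lie at 20% or less.

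Neurog3, the basic helix-loop-helix factor that commits progenitors to the endocrine fate, lies at chr10:61595838-61597511 on the plus strand (ENSMUSG00000044312.3), inside the gene 2010107G23Rik of the opposite strand. Its promoter level was 0.996% in P0 ISCs, 2.89% in P0 differentiated cells, 5.17% in P21 ISCs and 3.71% in P21 differentiated cells. The ISC library at P0 was thus the lowest and that at P21 the highest, all of them near the floor. Its low state reached far beyond the promoter: 29 of its 33 bins were at 20% or less in every library, with an unbroken run of 3000 bp from -1437 to 1563 bp relative to the TSS. The last exon, which holds the coding sequence, stood at 8.20%, 7.02%, 14.3% and 9.64% in the same order, again highest in P21 ISCs.

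Neurod1, a related factor that acts downstream of Neurog3, lies at chr2:79292678-79296908 on the minus strand. Its span overlaps Cerkl on the same strand and the lincRNA gene Gm17325 on the opposite strand. The promoter level was 6.64% in P0 ISCs, 7.14% in P0 differentiated cells, 9.17% in P21 ISCs and 9.19% in P21 differentiated cells. These levels lay within 2.56 points of each other, and the adjusted p of each comparison was above 0.05. The mean bin levels were higher and wider apart, at 11.1%, 14.8%, 12.9% and 17.6% in the same order. Of its 32 bins, 21 were low in all libraries, with the longest run, 1600 bp, upstream of the TSS, and its last exon was at 8.76% to 13.1% by pooled calls and at 20.3% to 23.8% by mean bin levels. By pooled calls Neurog3 and Neurod1 were the only members with a last exon below 20%, against a median over all genes of 85.9% to 86.4%.

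Chga encodes chromogranin A and Chgb chromogranin B, acidic proteins of the secretory granule that are used as general markers of endocrine cells. The Chga promoter (gene at chr12:103793179-103803237, plus strand) was at 18.9% in P0 ISCs, 13.4% in P0 differentiated cells, 17.4% in P21 ISCs and 17.3% in P21 differentiated cells. The Chgb promoter (gene at chr2:132607014-132620815, plus strand) was at 8.26%, 5.71%, 6.72% and 6.68% in the same order. By pooled calls P0 differentiated cells were the lowest library in both genes, in Chgb by less than a point and there not by mean bin levels. The low stretch was short in each: 1000 bp around the TSS in Chga and 800 bp starting at the TSS in Chgb. Beyond it methylation was high, with body levels of 78.1% to 83.1% in Chga and 78.4% to 80.2% in Chgb, close to the median of all gene bodies (80.1% to 80.8%). Another unmethylated stretch of Chga lay in the bins centred at -4278 and -4078 bp from the TSS.

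Gcg encodes proglucagon, from which L cells of the gut make GLP-1 and related peptides. It lies at chr2:62312587-62321707 on the minus strand, and none of its 21 bins was at 20% or less in any library. The promoter level was 52.2% (45.4% to 58.9%) in P0 ISCs, 67.4% (61.2% to 73.0%) in P0 differentiated cells, 59.8% (53.4% to 65.9%) in P21 ISCs and 68.9% (62.6% to 74.5%) in P21 differentiated cells. The lowest of its 4 promoter bins was the one printed above, centred at -194 bp from the TSS, with levels of 29.3%, 41.0%, 41.7% and 48.2% in the same order. The 3 other promoter bins were between 52.2% and 90.9%, so the CpG-rich bin was the least methylated of the 4 in each library. The Gcg body was at 83.0% to 85.1%, and no bin of its last exon could be tested.

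Pyy encodes peptide YY, another hormone of L cells. It is the shortest member (chr11:101967990-101969146, minus strand) and all of its bins fell into the promoter, last exon or upstream part. The promoter was at 18.9% in P0 ISCs, 19.3% in P0 differentiated cells, 19.9% in P21 ISCs and 14.3% in P21 differentiated cells, the last being the lowest. The unmethylated part did not cover the TSS but lay inside the gene: 4 adjacent bins from 145 to 945 bp downstream were at 20% or less in every library, whereas the bins centred at -555 bp and -955 bp were between 54.8% and 84.6%.

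Cck encodes cholecystokinin, the hormone of I cells, and lies at chr9:121398943-121404807 on the minus strand. The promoter was at 11.5% in P0 ISCs, 12.9% in P0 differentiated cells, 10.9% in P21 ISCs and 13.1% in P21 differentiated cells, levels whose intervals overlapped. As in Pyy, the longest low run lay downstream of the TSS, from 756 to 1756 bp, and the body as a whole was at 19.3% to 31.5% by pooled calls and at 47.4% to 47.8% by mean bin levels, while its last exon was at 90.5% to 94.2%. Tac1, the gene of substance P and neurokinin A, which are made by serotonin cells of the gut and by enteric neurons, lies at chr6:7505071-7512973 on the plus strand. Its promoter was at 4.16%, 3.08%, 4.76% and 3.16% in the same order, and the unmethylated stretch continued from -470 to 1730 bp relative to the TSS. Its last exon was at 86.2% to 89.9%.

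Insl5 encodes an insulin-like peptide of colonic L cells and lies at chr4:102690477-102699447 on the minus strand. Its promoter was at 48.3% in P0 ISCs, 50.8% in P0 differentiated cells, 46.0% in P21 ISCs and 43.4% in P21 differentiated cells, and no comparison between them passed the test. Only 2 of its 33 bins were low in all libraries. The level of its body was 80.1% to 84.1%.

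Tph1 encodes tryptophan hydroxylase 1, the rate-limiting enzyme of serotonin synthesis in enterochromaffin cells. At its annotated start (gene at chr7:53902500-53927907, minus strand) the promoter was at 56.3% in P0 ISCs, 51.0% in P0 differentiated cells, 56.2% in P21 ISCs and 57.3% in P21 differentiated cells. Its longest low run was not there but 4706 to 5306 bp downstream, over a stretch of 600 bp with a level of 0.472%, 0.765%, 3.44% and 0.714% in the same order. That stretch holds the start of another annotated transcript with a coding sequence of the same length (chr7:53922747), and the CpG-rich sequence printed above belongs to it. The choice of transcript thus decides whether the Tph1 start appears methylated: the 2 kb around the other start averaged 49.5%, 40.6%, 46.4% and 42.7%, but with the unmethylated stretch at its centre. This comparison of starts was made after the levels were seen. By pooled calls the members most alike in promoter level were Neurog3 and Tac1, whose levels differed by at most 3.16 points in any library, and Neurod1 and Chgb, by at most 2.52 points; by mean bin levels Neurod1 lay nearest to Cck.

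**Figure D2:**
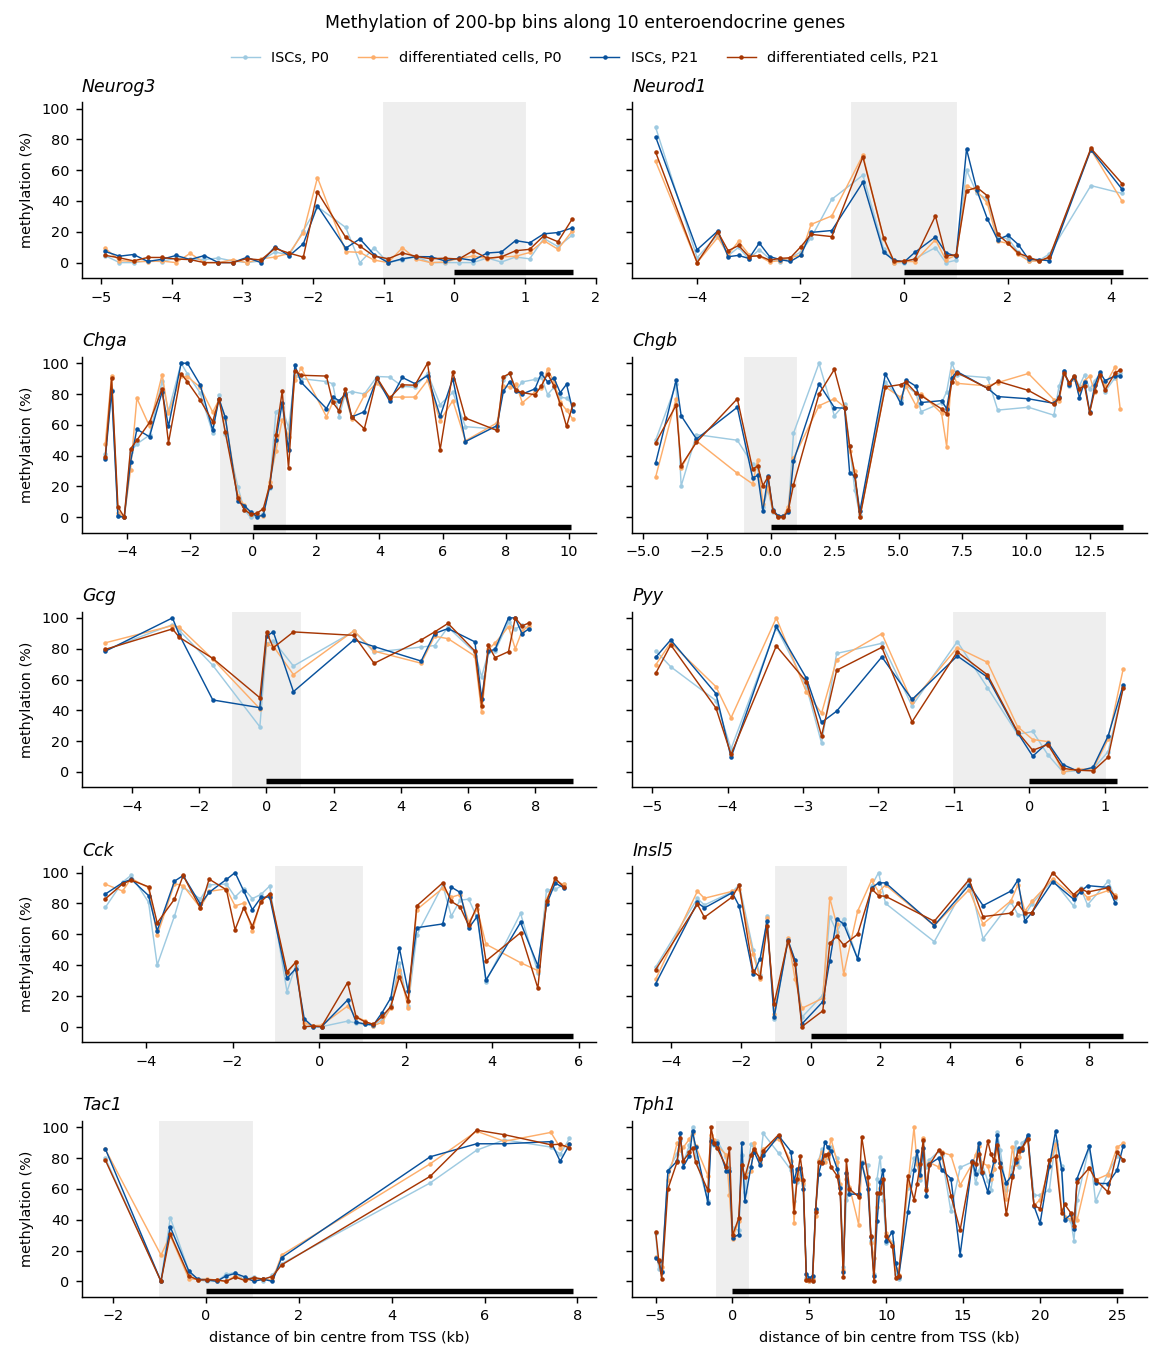
Methylation of each measured 200-bp bin (vertical axis, %) by the distance of its centre from the TSS (horizontal axis, kb, in the direction of transcription) in the 4 libraries; the grey band is the promoter region, the black bar the gene, and lines only join neighbouring measured bins. Low and high stretches lie at similar places in the 4 libraries, while single bins differ between them, with wide low stretches in Neurog3, Neurod1 and Tac1, and with a low stretch about 5 kb inside Tph1.

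Counted over all members, 97 of the 392 bins (24.7%) were at 20% or less in every library, against 5.19% of all bins. The 2 sets are unlike, since member bins were taken around genes and their promoters and the others from the whole genome. Neurog3, Neurod1 and Tac1 gave 62 of these 97 bins, while Gcg gave 0.

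The first question of the design was how methylation changed with age from P0 to P21, in ISCs and in differentiated cells. A region was called when Fisher's exact test on its calls gave an adjusted p below 0.05, with Benjamini-Hochberg adjustment over all genes, and the difference was over 15 points. In ISCs none of the 10 member promoters was called (1.92% of all promoters were), none of 8 bodies (1.10%) and none of 9 last exons (3.22%). In differentiated cells none of the promoters (1.76%), bodies (1.04%) or last exons (2.74%) was called. In any comparison, the 7 member promoters at 20% or less in every library could differ by at most 20 points. A call was thus nearly out of reach for them, as for the 56.3% of all promoters that were as low. At an adjusted p below 0.05 and any size, 1 promoter passed in ISCs (20.4% of all promoters) and 2 passed in differentiated cells (24.2%), shares no higher than in the background. At that threshold no body passed in ISCs and 2 in differentiated cells (32.8% and 40.1% of all bodies), and 1 and 2 last exons passed (11.9% and 14.9% of all last exons).

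The promoter that passed in ISCs was that of Neurog3. Its level went from 0.996% (0.542% to 1.82%, 1004 calls) at P0 to 5.17% (4.07% to 6.55%, 1237 calls) at P21, a rise of 4.18 points (2.80 to 5.63; Fisher's exact test, adjusted p = 3.1e-07), and 9 of its 10 bins were higher at P21 and 0 were lower. The last exon of Neurog3, which shares bins with the promoter region, rose by 6.05 points in ISCs (3.51 to 8.56; Fisher's exact test, adjusted p = 1.2e-04), with 7 of 7 bins higher. The promoter bins centred at 463, 663 and 863 bp from the TSS lie in the last exon and count in both regions. They held 9, 22 and 19 of the promoter's 64 methylated calls in P21 ISCs, and 4, 1 and 2 of its 10 in P0 ISCs. Most of the methylated promoter calls in P21 ISCs thus lay in the last exon. The coding bin printed above went from 0.361% (1 of 277 calls methylated) to 6.88% (22 of 320 calls) in ISCs, while differentiated cells were at 3.70% and 3.71%. In differentiated cells the promoter level moved by 0.821 points and the last exon rose by 2.62 points (1.04 to 4.25; Fisher's exact test, adjusted p = 0.013), again with 7 of 7 bins higher. With calls thinned to equal numbers per bin this last exon difference was 2.41 points and did not pass (adjusted p = 0.40 by the exact test). The rises in ISCs were then 3.59 points in the promoter and 6.02 points in the last exon. Both passed at any size (adjusted p = 1.6e-04 and 4.6e-04 by the exact test), with 1 library per age. All of these values stayed far below the 15-point size of a called region. Among the 10112 promoters with a mean level below 10%, the median change in ISCs was -0.038 points, and 185 (1.83%) rose by at least as much as that of Neurog3.

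The difference between the change with age in differentiated cells and in ISCs was tested on the log odds scale with all 4 libraries. It was -1.39 ± 0.373 (SE from counting error) for the Neurog3 promoter (Wald test of binomial log odds, adjusted over all promoters, adjusted p = 0.0043). Of the 10 member promoters it was the only one to pass, as did 10.9% of all promoters, and none of the 9 last exons passed (3.55% of all last exons); other settings added a pass of the Chga or Pyy promoter or the Pyy last exon, each under 1 setting. When calls were thinned to equal numbers per bin the Neurog3 difference was -0.98 and no longer passed (same test of binomial log odds, adjusted p = 0.55).

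Pyy and Chga were the promoters that passed in differentiated cells. The Pyy promoter fell by 4.93 points from P0 to P21 (-7.71 to -2.13; Fisher's exact test, adjusted p = 0.0044), with 7 of 8 bins lower, the Pyy last exon fell by 11.9 points (-19.8 to -3.53; adjusted p = 0.041 by the same exact test), and its upstream part fell by 7.43 points (-11.9 to -2.93; adjusted p = 0.0096 by the same exact test) with 9 of 10 bins lower. The direction was thus shared by the parts of this gene, each short of the 15-point size. With calls thinned to equal numbers per bin the promoter difference was -2.45 points (adjusted p = 0.76 by the exact test). That of the last exon was -13.5 points (adjusted p = 0.085 by the exact test), so neither passed. The upstream part was not examined with thinned calls. In ISCs the Pyy promoter moved by 1.01 points with 5 of 8 bins higher, and the difference between the populations did not pass (-0.42 ± 0.164, Wald test of binomial log odds, adjusted p = 0.079). The Chga promoter rose by 3.84 points in differentiated cells (1.61 to 6.11; Fisher's exact test, adjusted p = 0.0053), yet 4 of its 9 bins were higher and 5 were lower, and the mean of its bin levels went from 24.3% to 26.5%. With thinned calls the sign turned, to -1.88 points (adjusted p = 0.82 by the exact test).

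**Figure D3:**
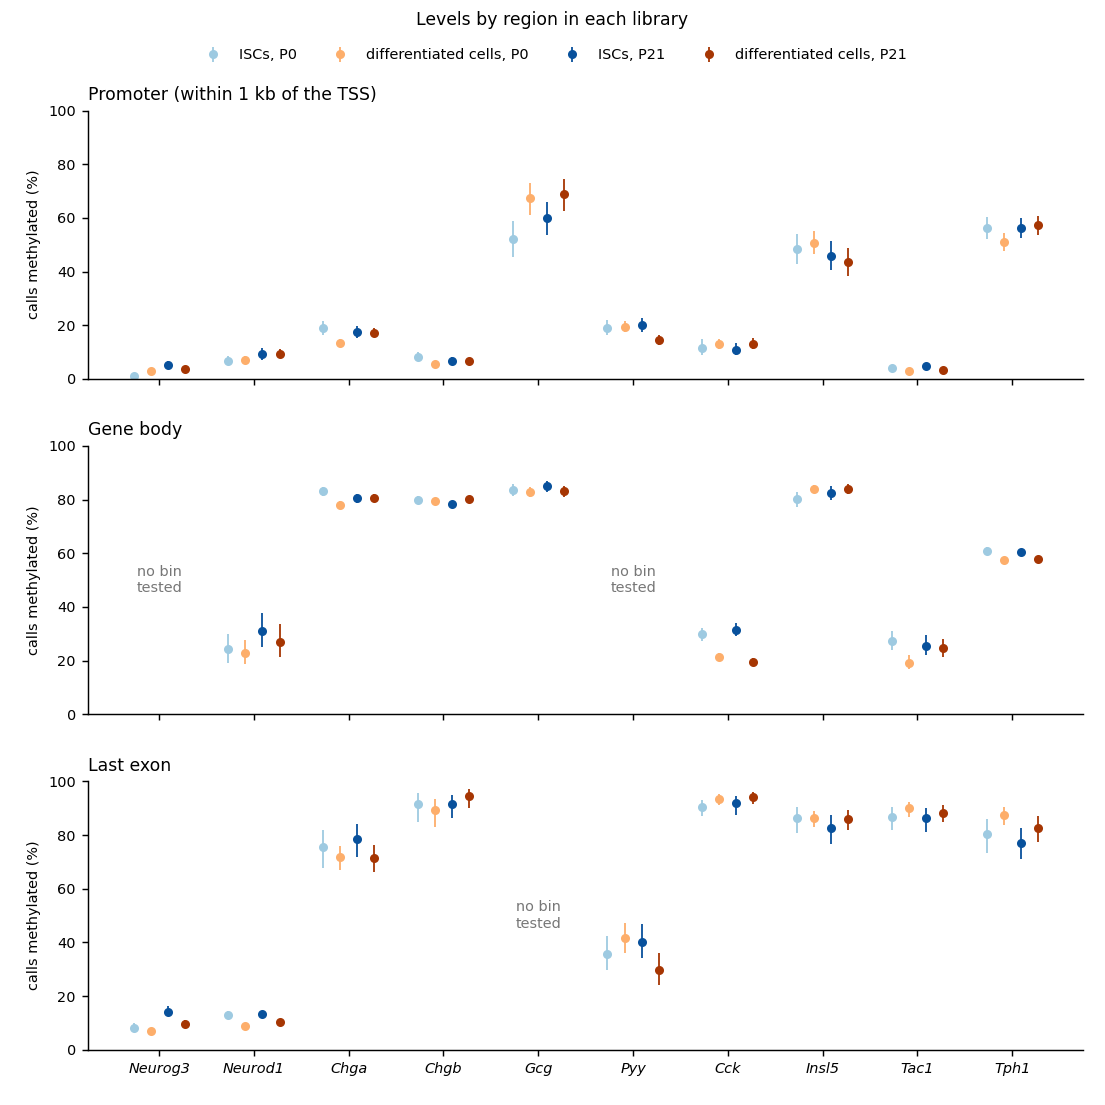
Percentage of calls methylated (vertical axis) in the promoter, body and last exon of each member in the 4 libraries, with 95% Wilson intervals as bars, 1 library per point; text marks regions in which no bin was tested. Promoters of Gcg, Insl5 and Tph1 lie above 40% and the other 7 at 20% or less, and last exons are high except in Neurog3, Neurod1 and Pyy.

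The second question was how differentiated cells differed from ISCs at each age. At P0, 1 of 10 member promoters was called (1.24% of all promoters), 0 of 8 bodies (0.583%) and 0 of 9 last exons (1.17%). At P21 none of the promoters (0.877%), bodies (0.337%) or last exons (0.804%) was called. At an adjusted p below 0.05 and any size, 4 promoters passed at P0 and 2 at P21 (36.6% and 30.5% of all promoters), 4 bodies and 2 bodies (29.8% and 28.2%), and 1 and 2 last exons (8.91% and 6.24%).

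The called promoter was that of Gcg, higher in differentiated cells than in P0 ISCs by 15.2 points (6.07 to 24.0; Fisher's exact test, adjusted p = 0.0051). Bin by bin, 1 of its 4 bins was higher and 3 were lower, and the mean of the bin levels was 67.2% in differentiated cells and 66.6% in ISCs. The least methylated bin gave 56.0% of the promoter's calls in P0 ISCs and 32.6% in differentiated cells, so the 2 pooled levels weighted the bins differently. That bin itself was at 41.0% (32 of 78 calls) in differentiated cells and 29.3% (34 of 116 calls) in ISCs and did not pass the test. With calls thinned to equal numbers per bin the promoter difference was 6.71 points (adjusted p = 0.97 by the exact test), and it was not called.

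The same held for the bodies of Cck and Tac1. The pooled level of the Cck body was lower in differentiated cells, by -8.47 points at P0 (-11.3 to -5.73; Fisher's exact test, adjusted p = 1.4e-08) and by -12.2 points at P21 (-14.97 to -9.47; adjusted p = 3.9e-17 by the same exact test). Of its 16 bins, 7 were higher and 9 lower at P0, and 8 were higher and 8 lower at P21. The mean of the bin levels was 47.5% in P0 ISCs, 47.7% in P0 differentiated cells, 47.8% in P21 ISCs and 47.4% in P21 differentiated cells. Bins at 20% or less gave 55.7% and 57.5% of the calls of this body in ISCs at P0 and P21, and 69.2% and 71.2% in differentiated cells. In the Tac1 body the pooled difference at P0 was -8.08 points (-12.6 to -3.68; Fisher's exact test, adjusted p = 0.0021), while 4 of 7 bins were higher and the bins averaged 37.1% in ISCs against 40.6% in differentiated cells. Thus the pooled differences in these regions were not matched by their mean bin levels. With thinned calls the Cck body differed by 0.779 points at P0 and by -2.34 points at P21. What part of the pooled differences came from the weighting of bins was not tested. Over all 108 member region differences the gap between pooled calls and mean bin levels had a median of 1.48 points and reached 14.7 points, 25 had opposite signs, and by mean bin levels none was over 15 points.

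**Figure D4:**
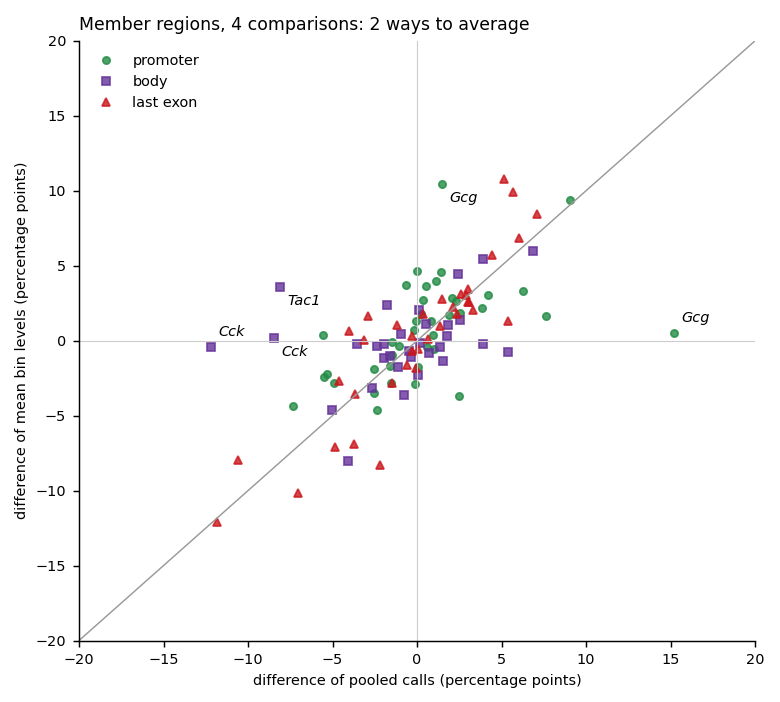
Difference of mean bin levels (vertical axis, percentage points) against the difference of pooled calls (horizontal axis, percentage points) for each member promoter, body and last exon in the 4 comparisons, with the line of equal values. Gcg at 15.2 points and Cck at -12.2 points of pooled difference lie near 0 by mean bin levels.

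Other differences between the populations that passed were under 15 points in size. The Chga promoter was lower in P0 differentiated cells, by -5.49 points (-8.46 to -2.69; Fisher's exact test, adjusted p = 5.2e-04), though 5 of 9 bins were higher and the sign turned with thinned calls (1.41 points). The Chga body was lower by -5.03 points at P0 (-7.17 to -2.82; adjusted p = 1.0e-04 by the same exact test), with 20 of 26 bins lower and mean bin levels of 77.5% against 82.1%, and by -4.35 points with thinned calls, which did not pass (adjusted p = 0.11 by the exact test). The Neurod1 last exon was lower by -4.06 points at P0 (adjusted p = 4.7e-05 by the same exact test) in 7 of 9 bins, yet its mean bin levels were 21.0% in differentiated cells and 20.3% in ISCs. The Pyy promoter was lower in P21 differentiated cells by -5.57 points (adjusted p = 0.0045 by the same exact test), with 5 of 8 bins higher and mean bin levels of 25.4% against 24.99%. The Chgb promoter at P0 (-2.55 points), the Tac1 promoter at P21 (-1.60 points) and the Tph1 body at both ages (-3.55 and -2.39 points) also passed. None of these 4 passed with thinned calls, where the Chgb promoter differed by -0.494 points and the Tph1 body by -0.730 and -1.18 points, while the Tac1 promoter kept its size (-1.60 points; adjusted p = 0.59 by the exact test). In Neurog3 the promoter was higher in P0 differentiated cells by 1.90 points (0.893 to 2.73; Fisher's exact test, adjusted p = 0.0017) with 6 of 10 bins higher, but by 0.871 points with thinned calls (adjusted p = 0.90 by the exact test). Its last exon was lower in P21 differentiated cells by -4.62 points (adjusted p = 0.0020 by Fisher's exact test) with 6 of 7 bins lower, and by -2.91 points with thinned calls (adjusted p = 0.62 by the exact test). The Neurod1 last exon was lower at P21 by -2.92 points (adjusted p = 0.014 by Fisher's exact test), yet 6 of 9 bins were higher and its mean bin levels were 23.8% in differentiated cells and 22.1% in ISCs.

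Upstream of the promoters, from 5 kb to 1 kb before the TSS, the widest such difference was in Chgb. The part upstream of Chgb was lower in P21 differentiated cells by -14.9 points (-24.3 to -5.15; Fisher's exact test, adjusted p = 0.026), with mean bin levels of 56.0% against 62.4%. It had 5 bins with 12 CpGs and included the Chgb bin printed above. That bin alone was at 33.3% in P21 differentiated cells and 65.9% in P21 ISCs. The part upstream of Neurod1 was lower in differentiated cells at P0 by -5.81 points (adjusted p = 8.0e-08 by the same exact test) and at P21 by -3.44 points (adjusted p = 0.010 by the same exact test), but 6 of its 13 bins were higher and 7 lower at each age, and its mean bin levels were 13.5% against 15.7% at P0 and 13.2% against 14.3% at P21. The part upstream of Tph1 was higher in them at P0 by 6.43 points (adjusted p = 0.0032 by the same exact test) and at P21 by 6.93 points (adjusted p = 0.0067 by the same exact test), but its mean bin levels were 69.0% against 67.1% at P0 and 65.6% against 65.5% at P21. The part upstream of Cck was lower at P21 by -5.01 points (adjusted p = 0.0038 by the same exact test). None of these upstream differences was over 15 points. At that size 1.58% of all upstream parts were called between the populations at P0 and 1.09% at P21. The share of all upstream parts that passed at any size was not counted. These upstream differences were not examined with thinned calls.

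At the level of single bins, 4 of the 392 member bins were called between P0 and P21 in ISCs (2.55% of all bins were), 6 in differentiated cells (2.85%), 1 between the populations at P0 (0.508%) and 1 at P21 (0.182%). The members' shares were 1.02%, 1.53%, 0.255% and 0.255%, at or below the background except for the single bin at P21. In ISCs 2 bins gained (1.07% of all bins) and 2 lost (1.48%), and in differentiated cells 3 gained (0.992%) and 3 lost (1.86%). Between the populations the P0 call was higher in differentiated cells (0.288% of all bins, against 0.220% lower) and the P21 call was lower in them (0.111%, against 0.0711% higher). Without a test, 40, 41, 45 and 34 member bins differed by over 15 points in the 4 comparisons, beside 13.5%, 12.0%, 10.6% and 9.47% of all bins. The 12 calls fell in 11 bins, of which 8 held 2 or 3 CpGs. Of the 11 bins, 5 lay upstream of a gene and 1 lay in a promoter region. None of the 11 was low in all libraries. For bins that low, a difference of over 15 points was nearly out of reach, so the lack of calls among them tells little.

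The largest gain was the bin upstream of Chgb printed above, centred at -3513 bp from the TSS. It was at 20.3% in P0 ISCs (14 of 69 calls), 32.1% in P0 differentiated cells (18 of 56), 65.9% in P21 ISCs (29 of 44) and 33.3% in P21 differentiated cells (19 of 57). The ISC library at P21 was the highest, with a gain of 45.6 points over P0 ISCs (27.2 to 60.1; Fisher's exact test, adjusted p = 2.2e-04), while its difference from P21 differentiated cells did not pass (adjusted p = 0.16 by the same exact test). Both of its CpGs were higher in P21 ISCs than at P0, with 4 of 34 and 11 of 23 calls methylated at the first and 10 of 35 and 18 of 21 at the second. These CpGs, at positions 132603557 and 132603572, can share reads, so their calls need not be independent.

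Of the 3 other bins called with age in ISCs, 1 rose and 2 fell. A bin of 2 CpGs upstream of Cck (chr9:121408001-121408200) rose from 71.8% to 94.4% in ISCs, with differentiated cells at 92.8% and 82.8%, and it was the bin called between the populations at P0 too, since P0 ISCs were the lowest of the 4 libraries. A bin upstream of Gcg (chr2:62323201-62323400) fell from 69.2% to 46.7% in ISCs while differentiated cells were at 73.3% and 73.7%, so the ISC library at P21 was the lowest, though its difference from P21 differentiated cells did not pass (Fisher's exact test, adjusted p = 0.26). A bin in intron 4 of Tph1 (chr7:53913001-53913200) fell from 73.9% to 17.4% in ISCs, each on 23 calls, and stood at 62.5% and 33.3% in differentiated cells, lower at P21 in both populations.

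In differentiated cells, the Chga gene held both a loss and a gain. The bin over exon 3 and its flanking introns (chr12:103796601-103796800) fell from 79.1% to 57.5%, and the bin over exon 5 and intron 4 (chr12:103799401-103799600) rose from 75.8% to 94.0%. ISCs went from 32 of 40 to 37 of 54 methylated calls in the first and from 30 of 37 to 63 of 70 in the second, in the direction of differentiated cells but uncalled. The last exon of Chgb rose from 70.0% to 95.7% in 1 bin (chr2:132620601-132620800), where P0 differentiated cells were the lowest library and ISCs were at 93.8% and 91.6%, a difference from P0 ISCs that did not pass (Fisher's exact test, adjusted p = 0.29). A bin upstream of Pyy (chr11:101973001-101973200) fell from 35.1% to 11.4%, with 6 of 40 and 5 of 53 calls methylated in ISCs. In Tph1 a bin of intron 3 (chr7:53916001-53916200) fell from 100% to 52.8% with 13 calls at P0, and the bin centred at -194 bp from the annotated start (chr7:53928001-53928200) rose from 56.2% to 86.4%, with ISCs at 73.5% and 71.4%. The bin called between the populations at P21 lay upstream of Cck (chr9:121406601-121406800), at 100% in ISCs (35 of 35 calls) and 63.0% in differentiated cells (34 of 54 calls). When calls were thinned to equal numbers per bin, 1 of these 12 calls, the gain upstream of Chgb, still passed. Thinning also lowered the number of called bins over the whole genome. With age it fell from 104140 to 65952 in ISCs and from 116373 to 51182 in differentiated cells. Between the populations it fell from 20700 to 3854 at P0 and from 7412 to 1564 at P21.

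**Figure D5:**
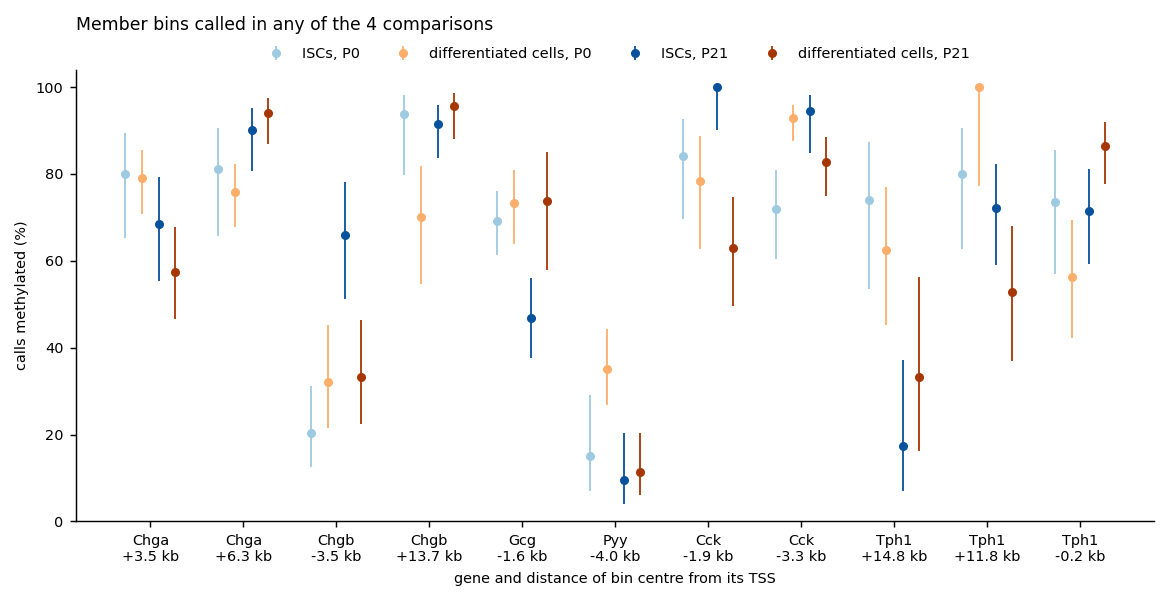
Percentage of calls methylated (vertical axis) in each of the 11 member bins called in any comparison, by gene and distance of the bin centre from the TSS, in the 4 libraries with 95% Wilson intervals as bars. P21 ISCs are the highest library upstream of Chgb (65.9%) and the lowest upstream of Gcg (46.7%), and P0 differentiated cells are the lowest in the last exon of Chgb (70.0%); in these 3 bins the differences between populations of the same age did not pass the test.

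Several peptide hormone and granule genes are known targets of cAMP signalling through the cAMP response element, whose central CpG can carry methylation. The promoters of the members, 1 kb on each side of the TSS, were therefore searched on both strands for the full element TGACGTCA and for its core TGACG. The full element was found in Gcg and Chgb, and in 4.02% of all promoters, and the core in all 10 member promoters and in 63.9% of all promoters. A match is a description of the letters, and binding was not measured here. The 2 matches are shown on the strand of the gene with the element in capitals, from chr2:62322000-62322019 for Gcg and chr2:132607300-132607319 for Chgb.
Gcg element: ctcattTGACGTCAaaattc
Chgb element: gctccgTGACGTCAgggctg
The CpG of the Gcg element, at -303 bp from the TSS, was methylated in 31.8% of calls in P0 ISCs (7 of 22), 36.4% in P0 differentiated cells (4 of 11), 53.8% in P21 ISCs (7 of 13) and 54.5% in P21 differentiated cells (12 of 22). Both libraries of P21 were above both of P0, but the intervals overlapped widely, from 16.4% to 52.7% in the first and from 34.7% to 73.1% in the last, so no difference was detectable at this depth. The CpG of the Chgb element, 295 bp downstream of the TSS, was at 0% of 10 calls, 0% of 36, 11.8% of 17 and 0% of 26 in the same order, and 0 of 36 calls allows up to 9.64% by the Wilson interval. Pooled over all full elements in promoters of any CpG content, the level was 12.9%, 7.42%, 11.8% and 8.17%. The Gcg element thus lay above the pooled level of such elements in each library. On its 11 to 22 calls it lay below the Gcg promoter as a whole, at 52.2%, 67.4%, 59.8% and 68.9% in the same order.

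To place the members among other genes of the lineage, a wider list of 60 enteroendocrine genes, members included, was described at their promoters. A measured promoter was present in 54, and 36 of these were at 20% or less in all 4 libraries, beside 56.3% of all promoters. Transcription factors were the lowest, with a median of 1.02% to 1.99% and 13 of 16 promoters low, the others being Pax4, Myt1 and St18. Granule proteins and processing enzymes were low in 13 of 14 cases. Hormone genes were mixed, with 6 of 15 promoters low and a median of 35.4% to 45.4%, as were genes of serotonin synthesis and amine storage, low in 2 of 4 cases, and sensors of nutrients and metabolites, low in 2 of 5. These classes differed in CpG content too. A CGI was present in 13 of 16 transcription factor, 10 of 14 granule, 6 of 15 hormone, 2 of 4 amine and 1 of 5 sensor promoters. None of the 54 promoters was called with age in ISCs or in differentiated cells (1.92% and 1.76% of all promoters were). For the 36 at 20% or less a difference of over 15 points was nearly out of reach. Between the populations at P0, Gcg was called higher and Sct (secretin) and Iapp (amylin) were called lower in differentiated cells (1.24% of all promoters were called), and at P21 Nts (neurotensin) was called lower (0.877%). By pooled calls Sct was at 10.4% in differentiated cells and 29.2% in ISCs, but by mean bin levels at 23.98% and 29.3%; Iapp was at 35.4% and 53.7%, or 30.5% and 41.4% by mean bin levels; Nts was at 37.7% and 60.4%, or 49.0% and 60.3%. By mean bin levels, and with thinned calls, each of these 4 differences was under 15 points and would not be called. The median difference over the list was small in each comparison, at -0.19 points with age in ISCs, 0.55 with age in differentiated cells, -1.14 between the populations at P0 and -0.28 at P21, beside -0.053, 0.085, -0.949 and -0.836 over all promoters.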

How the data were processed

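Bisulfite conversion of DNA from 4 pooled cell populations used the EZ DNA Methylation-Direct kit, and sequencing was paired-end. The authors mapped reads to mm9 with Bismark, Bowtie being named as well in the submitters' processing notes; tool versions and the handling of duplicate reads were not given in the sources used here. Per CpG cytosine, the deposited count of all calls and the deposited count of methylated ones were used. Levels were computed from these counts, and the deposited fraction was set aside. The number of CpG positions counted in other columns was 0.

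Both strands of each CpG of the mm9 reference were summed, leaving out 0.465% to 0.850% of positions that lay at no reference CpG. Autosomal bins of 200 bp entered with a minimum of 2 CpGs and of 10 calls in every library. Gene models came from GENCODE M1, taking for each gene its longest coding transcript (longest span among ties). Promoter bins had at least 100 bp within 1 kb of the TSS, last exon bins at least 1 bp in that exon, and body bins lay between, outside both. A region's level was pooled over its bins, so bins with more calls weigh more; the mean of bin levels was an alternative. The main test was the two-sided Fisher's exact test with Benjamini-Hochberg adjustment over all bins or genes (called: adjusted p below 0.05 and over 15 points), and the interaction was a Wald test of binomial log odds with 0.5 added to each count. These tests take calls as independent, but calls of neighbouring CpGs can come from 1 read, so the tests can pass too often. If duplicates remained, they pass too often for that reason as well. The procedure was tested on simulated data, in which calls were drawn as independent, so the sharing of reads was not tested.

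Groups came from the labels. The members, and the wider and marker lists, were chosen with earlier results of these data known. All members were named, with every called member bin; of the wider list, those with a called promoter, at most 3 per comparison and direction. The bins of uncalled size that are described, and the comparison of Tph1 starts, were chosen after their values were seen. Sequences were read from the mm9 reference. Alternatives were minima of 20 calls, 1 CpG and 4 CpGs, calls thinned to the lowest library in each bin, bins shifted by 100 bp, differences of over 10 and 30 points, 15 points without a test, inclusion of chromosome X, the mean of bin levels, single CpGs in the exact region, a promoter of 500 bp on each side and the most upstream TSS. Python 3.11.15, numpy 2.4.6, pandas 2.3.3, scipy 1.17.1, numba 0.67.0 and matplotlib 3.10.9 were used.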

Additional observations from a re-analysis of the deposited data

Results flagged for a closer look

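The change with age at the Neurog3 promoter differed between the populations: on the log odds scale the change in differentiated cells minus that in ISCs was -1.39 ± 0.373 (Wald test of binomial log odds, adjusted p = 0.0043), with a rise of 4.18 points in ISCs beside a difference of 0.821 points in differentiated cells, which did not pass the test. It came out among 19 such tests on member promoters and last exons, and 10.9% of all promoters passed. It no longer passed with calls thinned to equal numbers per bin (-0.98) or with a promoter of 500 bp on each side (-1.01). The promoter region takes in bins of the last exon, where most of its methylated calls in P21 ISCs lay. The test covers counting error only, and pooling of mice, age and library cannot be told apart.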

How the results depend on the processing

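No paired analysis was possible because each group had 1 library and the labels carry no replicate numbers. The number of member bins called, 4 with age in ISCs, 6 with age in differentiated cells, 1 between the populations at P0 and 1 at P21, was 0, 3, 0 and 0 with a minimum of 4 CpGs, 2, 0, 0 and 0 with thinned calls, 1, 7, 0 and 1 with bins shifted by 100 bp, 2, 2, 0 and 1 at over 30 points, and 40, 41, 45 and 34 at 15 points without a test; minima of 20 calls and of 1 CpG, over 10 points and inclusion of chromosome X gave counts within 1.5 times of these. Over all bins the counts were 104140, 116373, 20700 and 7412, and with thinned calls 65952, 51182, 3854 and 1564. They were 59451, 57812, 14511 and 7100 with a minimum of 4 CpGs and 103702, 116121, 20708 and 7170 with shifted bins. At over 30 points they were 49588, 43221, 7446 and 2966. Called member regions (promoters, bodies and last exons, without the upstream parts) were 0, 0, 1 and 0. The call, the Gcg promoter, was lost (0 called) with thinned calls, single CpGs in the exact region (12.1 points), mean bin levels (0.508 points) and over 30 points, and over 10 points added 1 in differentiated cells with age (the Pyy last exon) and 1 at P21 (the Cck body). By the Wald test of binomial log odds the Neurog3 difference between populations was -0.98 with thinned calls (adjusted p = 0.55) and -1.01 with a promoter of 500 bp on each side (adjusted p = 0.42), each no longer past the threshold.

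Among 1120 alternative values of single member regions, 12 turned the sign of a difference whose interval left out 0, none of them called; differences whose interval held 0 were given no direction and are not counted here. With thinned calls these were the Chga promoter with age in differentiated cells (-1.88) and between populations at P0 (1.41), the Tac1 body in the same comparisons (-0.668 and 2.004), the Cck body at P0 (0.779) and the Neurod1 last exon at P21 (0.245). With mean bin levels they were the Tac1 body with age in differentiated cells (-0.755) and at P0 (3.58), the Cck body at P0 (0.151), the Neurod1 last exon at P0 (0.657) and P21 (1.67), and the Pyy promoter at P21 (0.387), in points. By the same test of binomial log odds, the difference between populations in the change with age came to pass for the Pyy promoter with a minimum of 1 CpG (-0.45, adjusted p = 0.041), the Chga promoter with shifted bins (0.60, adjusted p = 5.2e-05) and the Pyy last exon with a minimum of 4 CpGs (-1.59, adjusted p = 0.045). The Chga interaction turned to -0.188 on the log odds scale with thinned calls. Thinning and mean bin levels both weight bins alike across libraries. Of 84 alternative values of called bins 62 stayed called, 22 did not and 0 turned. The start of the other Tph1 transcript, an alternative chosen after seeing the data, changed no call; member promoters at 20% or less in all libraries were 7 by pooled calls and 5 by mean bin levels, also added after seeing the data. Depth limits single bins: those called had as few as 13 calls in a library of the comparison.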
